A study of Mus musculus with 7 samples.

Results

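The 8 genes described here are Il1rl1, Gata3, Klrg1, Areg, Rora, Pparg, Stat6 and Il4ra, taken by symbol from the 15815 genes listed in the expression table, and all 8 were found. They cover the IL-33 and IL-4 receptor arms, and transcription factors, surface and secreted products described in regulatory T (Treg) cells of non-lymphoid tissues. Not all of them are particular to such cells. KO libraries (n = 3) came from YFP+ Treg cells deficient in Hpgd, the gene of the enzyme that inactivates prostaglandins, and WT libraries (n = 4) from YFP+ WT Treg cells. The sort took YFP+ cells of both groups out of the mesenteric lymph nodes (mLN) of Rag-/- hosts, which make no T or B cells of their own, 8 weeks after the hosts had received them together with WT naive T cells and WT Treg cells. The labels give the strain C57BL/6JRcc and the line Hpgd fl; Foxp3-YFP-Cre for every library, WT included, so that Cre and YFP are driven from Foxp3. They do not give which alleles of Hpgd the WT cells carried, the age of the mice, or whether each library is a separate host. P-values therefore measure the spread between these libraries, which may be technical. The libraries were SmartSeq2 cDNA from 10 ng of total RNA, a full-length protocol that keeps neither strand nor molecular identifiers.

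Il1rl1 encodes ST2, the receptor chain that binds the alarmin IL-33. The transcription factor GATA3, best known as the master regulator of Th2 cells, is also used by Treg cells at barrier surfaces and promotes ST2 expression there. IL-33 expands ST2+ Treg cells of gut, skin and fat, and such cells carry the inhibitory receptor KLRG1 and can secrete amphiregulin, the EGF receptor ligand encoded by Areg. PPARγ is the nuclear receptor on which visceral fat Treg cells depend, RORα is a nuclear receptor of skin Treg cells and of ILC2 cells, and the IL-4 receptor alpha chain signals through STAT6. Lymph node Treg cells generally carry less of this programme than those of the tissues.

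The 8 genes were well read in these lymph node cells, with the exception of Pparg, and no difference between KO and WT was detectable. Values are normalized counts, meaning the deposited value minus the offset of 1 that the table carries. Of 11787 genes with a mean of at least 10, limma called 0 at a Benjamini-Hochberg adjusted p of 0.05, which is 0% of those tested, and the smallest adjusted p was 0.189. A voom fit on reads recovered from the values also called 0. All 8 members were tested and 0 were called, each with a limma adjusted p of 0.9996. At an unadjusted p under 0.05 there were 0 of 8 members, against 211 of all tested genes, or 1.79% (181 genes with voom). The KO and WT libraries overlapped for every member, while 3.65% of tested genes had groups that did not overlap. The members' estimates were higher in KO for 6 and lower for 2, with a median log2 fold change (KO over WT) of 0.21, against 6106 higher and 5681 lower estimates and a median of 0.01 over all tested genes. WT 2 and KO 3 lay at opposite ends of the first principal component, and in a fit to the other 5 libraries 4 of the 8 estimates turned their sign.

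**Figure D1:**
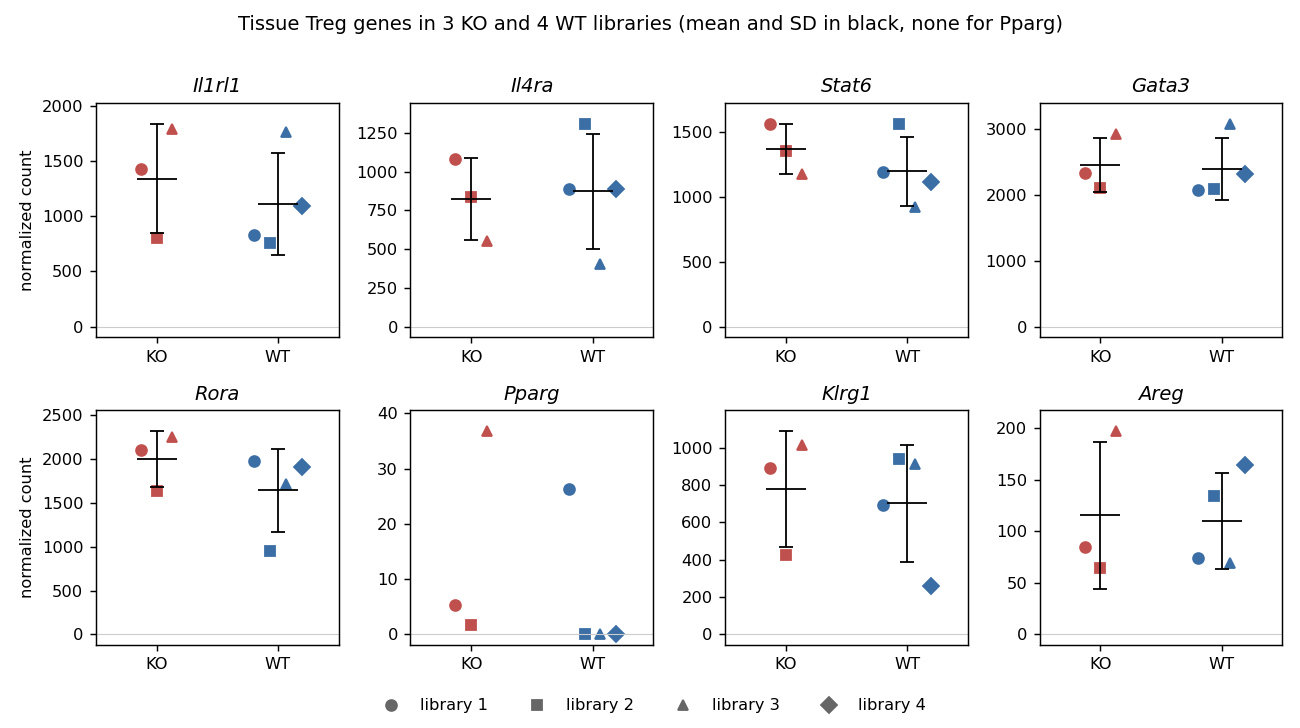
Normalized counts (linear axis from 0) of the 8 members in each of the 3 KO and 4 WT libraries, with 1 point per library and, except for Pparg, the group mean and SD in black. The KO and WT points overlap in each panel, and Pparg is the member with libraries at 0.

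The libraries held 4135733 (KO 3) to 10622507 (WT 4) recovered reads, and 1 read was worth 1.84 normalized counts in KO 3 and 0.703 in WT 4. Hpgd itself was at 0.759, 2.42 and 5.52 in KO, against 18.7, 9.96, 10.2 and 13.4 in WT, so every KO library lay below every WT library. These values rest on 7 reads over the KO libraries and 56 over the WT libraries, and Hpgd was too low to be tested. The labels do not name the deleted exons, and reads outside them would still count. The Treg identity genes Il2ra, Ikzf2 and Cd4 averaged 4564 ± 881, 10860 ± 2609 and 4173 ± 1024 in KO, against 4503 ± 875, 9687 ± 3721 and 4309 ± 983 in WT (SD, n = 3 and 4), while Foxp3 lay at 123, 107 and 142 in KO, against 107, 56.1, 161 and 103 in WT. The 15 genes listed for Treg identity split into 9 with a higher and 6 with a lower KO estimate, and 0 were called. Of the other cell types, markers of ILC2 and mast cells, which also carry ST2, summed to between 129 and 191 in KO and between 81.5 and 266 in WT over the 8 of 13 markers in the table. The most abundant of these markers, Il17rb, was at 82.0, 120 and 112 in KO, against 105, 67.0, 206 and 26.0 in WT. The mast cell receptor gene Kit was at 22.8, 25.9 and 0 in KO, against 0, 29.0, 6.79 and 23.2 in WT. Eosinophil and basophil markers (7 of 9 in the table) summed to between 88.1 and 158 in KO and between 59.8 and 149 in WT. All 16 myeloid and dendritic cell markers were in the table, and their sum ranged from 1264 to 3108 in KO and from 535 to 2665 in WT. Red blood cell markers (5 of 8 in the table) differed most, at 99.4 to 337 in KO and 638 to 2185 in WT. CD8 T and NK cell markers summed to 3157 to 4493 in KO and 2264 to 6336 in WT, B and plasma cell markers to 335 to 539 in KO and 359 to 818 in WT, and markers of stroma, endothelium, epithelium and fat to 601 to 791 in KO and 562 to 915 in WT. Of the 9 CD8 T and NK cell markers only 2 had a mean of at least 100. They were Nkg7 (2458 ± 131 in KO, 3238 ± 1636 in WT) and Gzma (1029 ± 539 in KO, 773 ± 663 in WT; SD, n = 3 and 4). The stroma, endothelium, epithelium and fat markers likewise held only 2 such genes, Epcam and Pecam1. The part of any of these other cell types in the members' values was not tested.

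The level of each gene relative to the others was compared per length, as reads per kilobase of the longest coding transcript per 1000000 reads of the library. On this scale Gata3 was the highest member, at a mean of 102.6 over the 7 libraries, above 95.1% of 14242 protein-coding genes in the table. Klrg1 (70.5) and Stat6 (45.5) followed, above 92.5% and 88.3% of those genes. Il1rl1 (31.2), Rora (22.5) and Il4ra (21.8) lay above 83.3%, 77.9% and 77.3%, and Areg (12.4) above 65.9%. Pparg, at 0.637, was above 25.9% of the protein-coding genes. Neighbours in this order had overlapping ranges over the libraries, except that Areg was above Pparg in 7 of 7 libraries with ranges apart. Gata3 exceeded Klrg1 in 6 of 7 libraries, and Rora exceeded Il4ra in only 4 of 7. With the union of exons as the length, Rora and Il4ra changed places and the other ranks were as before.

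**Figure D2:**
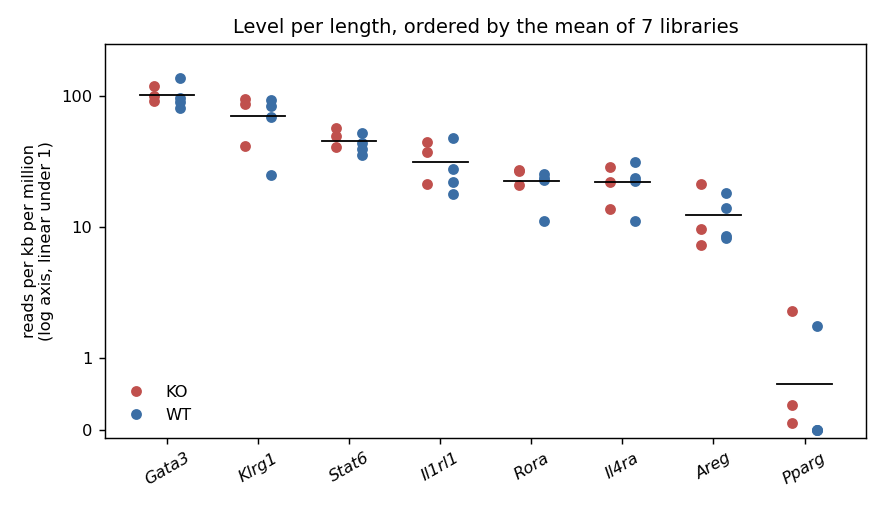
Level of each member as reads per kilobase of the longest coding transcript, per 1000000 reads of the library (log axis, linear under 1 so that libraries at 0 can be drawn), with 1 point per library in KO and WT and a bar at the mean of all 7. The members run in order of their mean over the 7 libraries, and neighbours overlap except for Areg and Pparg.

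Il1rl1 (GRCm38/mm10, chr1:40429570-40465415, plus strand, protein-coding) varied more than 2-fold within each group. It was at 1424, 807 and 1789 normalized counts in KO 1 to 3, and at 832, 755, 1765 and 1096 in WT 1 to 4. KO 3, WT 3 and KO 1 were high and WT 1, KO 2 and WT 2 were low, so that each group held both high and low libraries. The mean was 1340 ± 496 in KO and 1112 ± 459 in WT (SD, n = 3 and 4), with a log2 fold change of 0.28 (SE 0.32) in limma. The 95% interval ran from 0.751-fold to 1.95-fold of WT, and the exact permutation p was 0.571 (two-sided, 35 splits, smallest possible 0.0286). Leaving out both WT 2 and KO 3 turned the estimate to -0.13. The residual SD of Il1rl1 on the log2 scale, 0.57, was wider than that of 93.4% of 500 genes of like level, whose median SD was 0.27. In such bulk libraries fewer ST2+ cells and less Il1rl1 RNA per cell cannot be told apart. The annotation holds 5 coding transcripts of Il1rl1, and the table gives 1 value per gene, so the membrane and the soluble form of ST2 cannot be told apart either.

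The gene has a distal and a proximal start site. Their promoter windows, from 250 bases before to 50 after the start, are shown because GATA3 binds the letters GATA. The sequences are from RefSeq (GRCm38.p6, plus strand) and run 5′ to 3′, with each GATA in capitals, or TATC where it is read on the other strand. The distal window is chr1:40429320-40429619 and the proximal one chr1:40439379-40439678.
Il1rl1 distal: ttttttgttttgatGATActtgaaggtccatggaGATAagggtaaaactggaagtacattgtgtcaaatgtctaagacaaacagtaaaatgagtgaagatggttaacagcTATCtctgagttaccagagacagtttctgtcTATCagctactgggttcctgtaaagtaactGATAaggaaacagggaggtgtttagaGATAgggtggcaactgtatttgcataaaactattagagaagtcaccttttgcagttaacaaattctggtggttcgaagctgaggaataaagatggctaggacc
Il1rl1 proximal: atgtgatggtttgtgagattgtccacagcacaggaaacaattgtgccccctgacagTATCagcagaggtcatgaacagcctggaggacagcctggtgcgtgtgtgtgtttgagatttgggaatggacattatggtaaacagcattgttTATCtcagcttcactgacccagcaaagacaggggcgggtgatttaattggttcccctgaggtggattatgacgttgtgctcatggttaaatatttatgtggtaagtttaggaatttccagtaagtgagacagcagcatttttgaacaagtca
The distal window held 6 matches to GATA over both strands. Among 32851 promoter windows of the same length, 57.9% held at least 1 match, the median was 1, and 0.65% held 6 or more. The proximal window held 2, a number reached by 28.8% of windows. Base composition bears on such counts, and the distal window had 38.7% G and C, against a median of 52.7% over all windows. RefSeq windows matched 7 of the 8 members, 10 windows in all, and the others held fewer: 1 match in those of Gata3, Rora and Stat6 and 0 in those of Areg, Il4ra and Pparg. The letters AGGTCA, bound by nuclear receptors such as RORα and PPARγ, stood on either strand in 16.3% of all windows, and once each in the proximal Il1rl1 window, the Stat6 window and 2 of the 3 Pparg windows. TTC and GAA with 3 or 4 bases between them, as STAT dimers bind, occurred in 8.3% and 6.95% of windows and in 0 of the members'. These are matches of letters, not measured binding.

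Genes that carry the ST2 signal were called in neither direction. Of 19 listed genes of IL-33 receptor signalling 18 were tested, 0 were called (0 also at an unadjusted limma p under 0.05), 9 estimates were higher and 9 lower in KO, and the median log2 fold change was 0.00. Il1rap, the co-receptor chain without which ST2 does not signal, was at 94.1, 158 and 121 in KO, against 50.6, 67.0, 61.1 and 127 in WT. WT 4 overlapped the KO libraries while the other WT libraries lay below them, and the log2 fold change was 0.76 (SE 0.39; limma adjusted p = 0.9996). Tab2, an adaptor of the TAK1 kinase, was at 1720 ± 215 in KO and 1384 ± 178 in WT (SD, n = 3 and 4), with a log2 fold change of 0.32 (SE 0.19). Nfkb1, the p50 precursor gene, was the most abundant of the list, at 2626 ± 556 in KO and 2720 ± 194 in WT. The ligand gene Il33 was near the limit of detection, with 21 reads over the KO libraries and 26 over the WT libraries, and was too low to be tested.

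The IL-4 receptor arm was also read in every library. Il4ra (chr7:125552120-125579474, plus strand) was at 1083, 838 and 550 in KO, against 889, 1308, 404 and 886 in WT. The lowest libraries were WT 3 and KO 3 and the highest WT 2, so the range of WT enclosed that of KO. The mean was 824 ± 267 in KO and 872 ± 370 in WT (SD, n = 3 and 4), and the log2 fold change was -0.02 (SE 0.35; 95% interval 0.586-fold to 1.67-fold; exact permutation p = 1.00). The estimate turned to 0.25 without KO 3 and to 0.22 without WT 2. Its residual SD was wider than that of 96.8% of 500 genes of like level. Of the exon bases of Il4ra 571, or 9.51%, are shared with the antisense gene Gm44876, and reads of the pair cannot be told apart without strand.

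Stat6 (chr10:127642986-127660957, plus strand), the transcription factor that IL-4 receptors activate, was steadier. It was at 1562, 1352 and 1179 in KO, against 1191, 1559, 919 and 1110 in WT. WT 2 lay just below the highest KO library, KO 1, and WT 1 lay just above the lowest one, KO 3. The mean was 1364 ± 192 in KO and 1195 ± 268 in WT (SD, n = 3 and 4), and the log2 fold change was 0.21 (SE 0.21; 95% interval 0.838-fold to 1.59-fold; exact permutation p = 0.400). Without both WT 2 and KO 3 the estimate was 0.45 and the groups did not overlap, but the limma adjusted p did not fall under 0.961 in any setting tried. The share of all tested genes without overlap in that smaller set was not counted. Its residual SD was close to the middle of genes of like level (51.4th percentile of 500).

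Of the 18 genes listed for IL-4 receptor signalling 15 were in the table and tested, with 0 called (0 also at an unadjusted limma p under 0.05), 10 higher and 5 lower estimates and a median log2 fold change of 0.13. The partner chain gene Il2rg was the most abundant, at 23424, 22447 and 23427 in KO, against 21559, 26655, 13508 and 24838 in WT. WT 3, the lowest library of Il4ra, was also the lowest of Il2rg. The other partner chain gene, Il13ra1, lay at 43.3, 34.7 and 86.4 in KO and spread from 0 to 151 in WT. The kinase gene Jak1 averaged 5892 ± 293 in KO and 5381 ± 450 in WT (SD, n = 3 and 4). The adaptor gene Irs2 had the smallest unadjusted limma p of the list (0.222), followed by Socs1, a feedback inhibitor, at 1128 ± 282 in KO and 1412 ± 452 in WT. Il4 itself was low, at 27.3, 31.5 and 49.6 in KO, against 28.6, 29.0, 33.9 and 30.9 in WT. Of the 6 other STAT genes, 2 had higher and 4 lower estimates, with a median of -0.05 and 0 called (0 at an unadjusted limma p under 0.05).

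Among the transcription factors, Gata3 (chr2:9857078-9890034, minus strand) had the lowest ratio of the highest to the lowest library among the 8 genes, 1.48. It was at 2332, 2113 and 2918 in KO, against 2079, 2089, 3081 and 2324 in WT. WT 3 and KO 3 stood above the other 5 libraries, which lay between 2079 and 2332. The mean was 2454 ± 417 in KO and 2393 ± 472 in WT (SD, n = 3 and 4), with a log2 fold change of 0.04 (SE 0.21) in limma. The 95% interval ran from 0.755-fold to 1.40-fold, and the exact permutation p was 0.800. The sign turned without KO 3 (-0.09), WT 1 (-0.02) or WT 2 (-0.02). Of its exon bases 3.9% are shared with the antisense gene Gm13256 and 1.94% with 9230102O04Rik on the same strand.

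Rora (chr9:68653786-69388246, plus strand) had the smallest limma p of the members, and its groups overlapped. It was at 2107, 1635 and 2247 in KO, against 1982, 954, 1720 and 1914 in WT. WT 2 stood far below the other libraries, and KO 2 lay below 3 of the 4 WT libraries. The mean was 1997 ± 321 in KO and 1643 ± 472 in WT (SD, n = 3 and 4), and the log2 fold change was 0.32 (SE 0.26; 95% interval 0.851-fold to 1.84-fold; exact permutation p = 0.343). Without WT 2 the estimate was 0.08, and without KO 2 it was 0.46 with groups that did not overlap. How many of all tested genes were so separated without KO 2 was not counted. Of the 9 listed relatives and targets of RORα 5 had higher and 4 lower estimates (median 0.03; 0 called, 0 at an unadjusted limma p under 0.05). The clock gene Arntl, a ROR target, averaged 499 ± 47.9 in KO and 451 ± 161 in WT.

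Pparg (chr6:115360951-115490399, plus strand) was near the limit of detection. It had 7, 2 and 20 reads in KO, against 24, 0, 0 and 0 in WT, or 5.31, 1.62 and 36.8 normalized counts in KO and 26.4 in WT 1. KO 3 and WT 1 carried most of the signal, and 3 WT libraries were at 0, which allows up to 2.72, 3.39 and 2.11 normalized counts (3 reads) in WT 2 to 4. The exact Poisson intervals of KO 3 (22.5 to 56.8) and WT 1 (16.9 to 39.3) overlapped, and all such intervals and limits cover counting error only. The fitted log2 fold change of 1.90 (SE 1.63; exact permutation p = 0.343) rests on libraries at 0, depends on the added 1 and is no bound. It ran from 0.43 to 3.09 over the settings tried, with the highest value without WT 1, where the remaining WT libraries were all at 0.

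Other genes of the PPAR and lipid programme of fat Treg cells were called in neither direction. Of 28 listed genes 26 were in the table and 21 were tested, with 10 higher and 11 lower estimates, a median of -0.06 and 0 called. The single gene at an unadjusted limma p under 0.05 was Cpt1a, which imports fatty acids into mitochondria, at 1018, 978 and 907 in KO, against 618, 639, 729 and 821 in WT (log2 fold change 0.47, SE 0.19; limma adjusted p = 0.9996). Its KO libraries lay above all WT libraries. The lipid droplet gene Plin2 was at 247, 545 and 425 in KO, against 178, 399, 283 and 246 in WT, which overlapped. Ncor1, a corepressor of nuclear receptors, averaged 2894 ± 395 in KO and 2643 ± 780 in WT.

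**Figure D3:**
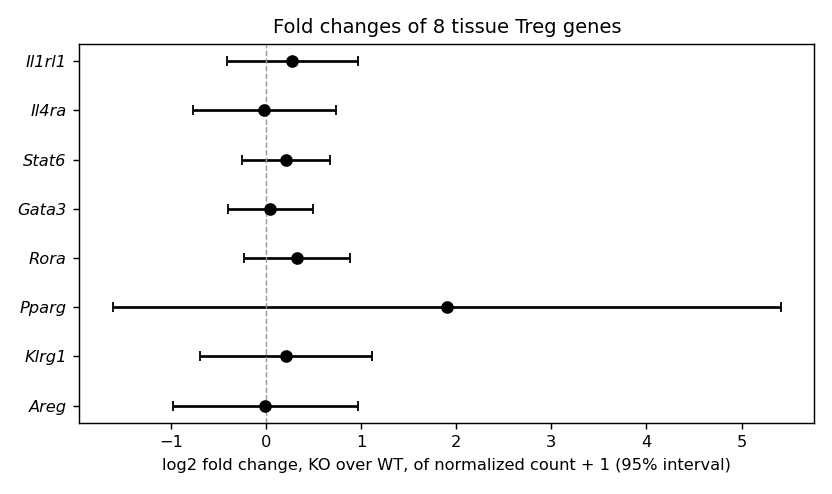
Log2 fold change (KO over WT) of each member from limma with its 95% interval, on the scale of log2(normalized count + 1). Each interval includes 0, the median over all tested genes is 0.01, and the interval of Pparg, from -1.61 to 5.42, is the widest.

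The surface and secreted products varied widely within the groups. Klrg1 (chr6:122270596-122282882, minus strand) encodes an inhibitory receptor that binds cadherins and marks terminally differentiated ST2+ Treg cells. It was at 890, 427 and 1015 in KO, against 695, 941, 913 and 261 in WT. WT 4 and KO 2 were low and the other 5 libraries lay between 695 and 1015, so each group held 1 low library. The mean was 777 ± 310 in KO and 703 ± 314 in WT (SD, n = 3 and 4), and the log2 fold change was 0.21 (SE 0.42; 95% interval 0.618-fold to 2.17-fold; exact permutation p = 0.743). The estimate was -0.21 without WT 4 and 0.60 without KO 2. The highest library was 3.88-fold above the lowest, and the residual SD was wider than that of 98.0% of 500 genes of like level, the highest percentile of the 8 members. On the list of KLRG1 ligands and killer lectin-like receptors, 2 of 8 tested genes had higher and 6 lower estimates, with a median of -0.12 and 0 called (0 at an unadjusted limma p under 0.05). Cdh1, the gene of the KLRG1 ligand E-cadherin, was at 137, 424 and 267 in KO, against 265, 467, 158 and 257 in WT, which overlapped.

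Areg (chr5:91139599-91148432, plus strand), the tissue repair factor, was the lowest of the members apart from Pparg. It was at 85.0, 63.8 and 197 in KO, against 73.7, 134, 69.0 and 164 in WT. KO 3 and WT 4 were the high libraries and KO 2 the lowest. The mean was 115 ± 71.4 in KO and 110.1 ± 46.4 in WT (SD, n = 3 and 4), and the log2 fold change was -0.01 (SE 0.45; 95% interval 0.507-fold to 1.95-fold; exact permutation p = 0.914). These values rest on 61 (WT 3) to 233 (WT 4) reads per library. Without KO 3 the estimate was -0.48, and without KO 2 it was 0.33. Of 11 listed EGF receptor ligands, receptors and processing enzymes in the table, 8 were tested, with 4 higher and 4 lower estimates, a median of 0.02 and 0 called (0 at an unadjusted limma p under 0.05). The sheddase genes Adam10 and Adam17, the second of which releases amphiregulin, averaged 1647 ± 345 and 824 ± 182 in KO, against 1531 ± 306 and 737 ± 163 in WT.

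No gene of the wider tissue Treg programme was called. Of 21 transcription factor genes 13 estimates were higher and 8 lower (median 0.12, 0 called), and of 32 surface and secreted genes 17 were higher and 15 lower (median 0.01, 0 called). In each list 1 gene reached an unadjusted limma p under 0.05. The AP-1 subunit gene Fosl2 was at 184, 195 and 195 in KO, against 112, 76.0, 158 and 146 in WT (log2 fold change 0.68, SE 0.31). Ltb4r1, the leukotriene B4 receptor gene, was at 221, 132 and 162 in KO, against 100.1, 95.1, 130.1 and 64.0 in WT (0.83, SE 0.34). Both had all KO libraries above all WT libraries, by a small margin for Ltb4r1, and neither passed over all genes (limma adjusted p = 0.9996). Id2, an inhibitor of E proteins, averaged 2414 ± 593 in KO and 2553 ± 119 in WT, and the integrin gene Itgae 12135 ± 1878 in KO and 12517 ± 2764 in WT.

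Cytokine genes of the type 2 response were low or not analysed here. Of 14 listed cytokine and receptor genes 7 were in the table and tested, with 5 higher and 2 lower estimates (median 0.19, 0 called, 1 at an unadjusted limma p under 0.05), and Il5, Il9 and Il13 were among those not analysed here. The gene under that p was Cysltr1, a cysteinyl leukotriene receptor gene, at 177, 201 and 234 in KO, against 118, 49.8, 191 and 119 in WT. WT 3 lay above KO 1, and the log2 fold change was 0.91 (SE 0.40; limma adjusted p = 0.9996). The TSLP receptor gene Crlf2 was at 138, 132 and 132 in KO, against 166, 326, 217 and 135 in WT. The chemokine receptor genes Ccr8 and Ccr4, found on tissue-seeking Treg cells, averaged 372 ± 92.3 and 327 ± 105 in KO, against 351 ± 78.3 and 344 ± 99.4 in WT. Of the partners and relatives of GATA3 3 of 8 tested genes had higher and 5 lower estimates (median -0.09, 0 called, 0 at an unadjusted limma p under 0.05), among them Ldb1, a cofactor of GATA complexes, at 393 ± 47.8 in KO and 527 ± 82.3 in WT (log2 fold change -0.41, SE 0.22).

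The members were also compared with each other over the 7 libraries. Il1rl1 and Gata3 ran in nearly the same order, with a Pearson r of 0.93 on the log2 scale (exact permutation p = 0.00238) and a Spearman rho of 0.86 (exact permutation p = 0.0238). Adjusted over the 28 pairs of members the permutation p was 0.0667 for r and 0.464 for rho, so the relation did not pass. KO 3 and WT 3 were the highest libraries of both genes, and without them r was 0.93. Among deviations from the group means r was 0.95, and it ranged from 0.90 to 0.99 when single libraries were left out. KO 3 and WT 3 were also the libraries with the fewest reads. Scaling the values by library total gave an r of 0.94 with an adjusted permutation p of 0.0111. Scaling by the trimmed mean of M-values gave an adjusted permutation p of 0.0556, and leaving out single libraries gave 0.143 to 0.428. The relation was picked after the values were seen. Other genes followed Il1rl1 (Sntb2, r = 0.96) and Gata3 (Caap1, r = 0.99) more closely. Whether GATA3 acts on Il1rl1 in these cells was not tested.

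**Figure D4:**
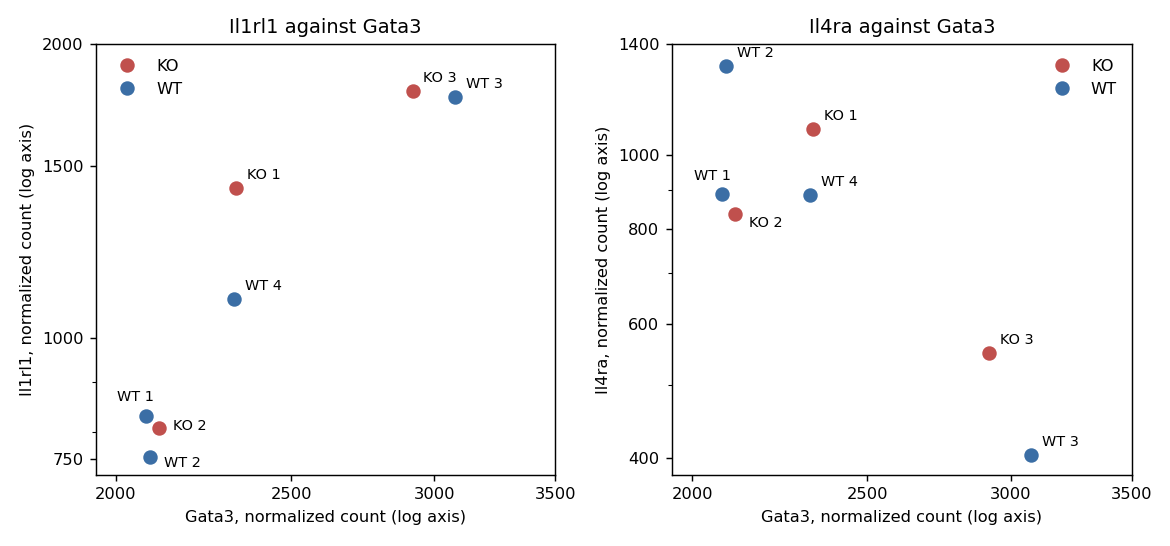
Normalized counts of Il1rl1 (left) and Il4ra (right) against Gata3 (log axes), with 1 point per library in KO and WT, each point named. KO 3 and WT 3 stand at the right of both panels, high for Il1rl1 and low for Il4ra. Among the other 5 libraries r is 0.93 in the left panel and -0.06 in the right one.

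Il4ra ran against Gata3, with a Pearson r of -0.88 (exact permutation p = 0.0185, adjusted over 28 pairs 0.172) and a Spearman rho of -0.68 (exact permutation p = 0.110). That relation rested on KO 3 and WT 3, since r was -0.06 without them. Stat6 and Il4ra, receptor chain and transcription factor of the same arm, had an r of 0.86 (exact permutation p = 0.0149, adjusted 0.172) and a rho of 0.79 (exact permutation p = 0.0480, adjusted 0.464). Without KO 1 and WT 2, the libraries farthest from the median of Stat6, that r was 0.73. WT 3, the library with the lowest Il4ra and Stat6, also had the lowest sum of myeloid markers, at 535 against 1264 to 3108 in the other 6 libraries; the part of those cells was not tested. The libraries highest in Il1rl1 and Gata3 were also the highest in Ikzf2, at 13872 in KO 3 and 13666 in WT 3, and in Foxp3. WT 2 was the lowest for Ikzf2 and Foxp3. Other Treg identity genes ran the other way, and Il2ra and Cd4 had their lowest values in KO 3 (3659 and 3078) and WT 3 (3509 and 3630). The sum of the 15 Treg identity genes was highest in WT 2 (84718) and lowest in WT 3 (63544).

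The genes whose log2 values followed a member most closely were taken from 8891 genes with a mean of at least 50, by Pearson r over the 7 libraries, as a description. For Il1rl1 they were Sntb2 (r = 0.96), a syntrophin, Ikbkb (r = 0.96), a kinase subunit of the NF-κB pathway to which ST2 signals, and Pde1b (r = 0.96), a phosphodiesterase. Ikbkb was at 1752, 1554 and 1907 in KO, against 1502, 1362, 1862 and 1662 in WT, a much narrower range than that of Il1rl1. For Gata3 they were Caap1 (0.99), Uri1 (0.97) and Slc24a5 (0.97), and for Klrg1 Ap5s1 (0.95), Zbtb43 (0.94) and Fibp (0.93). For Areg they were Pam16 (0.98), H3f3b (0.97) and Acss2 (0.97). Rora was followed most closely by Ifi209 (0.99), an interferon-inducible gene, at 2954, 2319 and 3194 in KO, against 2785, 1038, 2428 and 2686 in WT. Pik3c2a (0.98) and Rbms1 (0.98) came next, and WT 2 was the lowest library of all 3 genes as it was of Rora. These are the highest of 8891 values for each member, whose median lay between -0.11 and 0.06, and all points share the same libraries and their depths.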

How the data were processed

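RNA was measured in 3 KO and 4 WT libraries. The deposited table gives each gene an expression signal in every library, which the authors had normalized. DESeq2, R 3.3.1, Partek 6.6, kallisto 0.44, CASAVA 1.8 and the build mm10 stand in the submitters' processing notes, without their roles, and bcl2fastq2 2.20 in the labels' protocols. No value was below 1. After subtracting that offset, 100% of values were multiples of a step particular to the library, to within 0.01 of a read. The value minus 1 is the normalized count, and dividing it by the step gave reads, from 4135733 to 10622507 per library. Count models were not run on these recovered reads, and a voom fit was made with them instead.

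Log2(normalized count + 1) was analysed in limma 3.58.1 under R 4.3.3 (trended prior, all 7 libraries, no covariate) for genes with a mean of at least 10, with Benjamini-Hochberg adjustment over all of them. The fit was tested on simulated data with changes larger than any member's estimate. That test does not show whether changes of the members' size would be called. Fold changes are KO over WT on that scale, which understates changes of low genes. Single members also had an exact two-sided permutation test, and 500 genes of the nearest mean served to describe the spread. Lengths and loci came from GENCODE M21 (GRCm38/mm10). The members and gene lists were chosen with earlier results of these data known. Beside the 8 members, the text names label checks, in each list up to 2 genes of smallest p and 2 of highest mean, the partner chains, and the 3 genes most like a member. Permutation p-values for relations between members were added after the values were seen. No 2 libraries were alike within sampling noise. Alternatives covered the pseudocount, filter, scaling, prior, replicate block, voom and single libraries.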

Additional observations from a re-analysis of the deposited data

Results flagged for a closer look

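In 7 of 74 genes examined, 1 WT library stood apart from the other 3, its gap to the nearest of them exceeding Dixon's 95% critical share of the whole range. Chance flags about 1 in 20 groups. Among the 8 members this held for Pparg, at 26.4 normalized counts in WT 1 and 0 in the other WT libraries. WT 2 was the highest for Tnfrsf25 (1007), which encodes the receptor DR3, and for Cd4 (5769), and the lowest for Bcl11b (2349), a T cell transcription factor gene. WT 3 was the highest for the chemokine receptor gene Ccr8 (468.2) and the lowest for Klrk1 (16.96), which encodes the receptor NKG2D, and for the myeloid gene Lyz2 (47.5). The 3 KO libraries were not examined in this way.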

How the results depend on the processing

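The limma adjusted p of every member stayed between 0.92 and 1.00 in all 17 alternatives. The number of genes passing was 3 under the replicate block, 4 without both WT 2 and KO 3, and 0 otherwise. The replicate block (numbers 1 to 3, which leaves out WT 4) gave log2 fold changes of -0.21 for Klrg1, 0.21 for Areg and 0.029 for Il4ra, turning their sign. Leaving out WT 4 with no block gave the same estimates, so the block itself did not move them. Same-numbered libraries deviated with r of 0.01, -0.04 and 0.09, which gave no sign of pairing. So few libraries cannot exclude pairing, and the labels do not say whether the numbers pair them. Without both WT 2 and KO 3 the estimates turned to -0.13 for Il1rl1, -0.15 for Gata3, -0.0096 for Rora and 0.48 for Il4ra, and 1 member (Stat6) had groups that did not overlap. When single libraries were left out, 0 to 1 members did not overlap (Rora without KO 2, Pparg without WT 1). Fewer libraries separate more easily, and the share of all tested genes without overlap was not counted in these smaller sets. For Pparg, KO 2 (1.62) lay under the 3-read limits of WT 2 to 4 (2.72, 3.39 and 2.11), so that separation is not resolved. With single libraries left out, the estimates ranged from 0.03 to 0.60 for Il1rl1, -0.089 to 0.17 for Gata3, -0.21 to 0.60 for Klrg1, -0.48 to 0.33 for Areg, 0.08 to 0.46 for Rora, 0.83 to 3.09 for Pparg, 0.09 to 0.34 for Stat6 and -0.35 to 0.25 for Il4ra. Pseudocount, filter, scaling, prior and voom turned the sign of 0 members. Pparg lies under the filter of a mean of 50 and was fitted there with all genes. Scaling by library total raised the r of Il1rl1 and Gata3 to 0.94 and took it past the threshold, which no other setting did. Why the estimates and this r moved with the libraries left out or the scaling was not tested. The planned edgeR and DESeq2 fits were not run. Voom on the recovered reads was added after seeing the data. A median half-width of 0.67 log2 units for the unadjusted 95% intervals limits what 7 libraries can show, and changes smaller than this would often be missed. Larger changes could be missed too, since calls were adjusted over 11787 genes. The red blood cell gene Hba-a1, with a log2 fold change of -3.74, was not called (limma adjusted p = 0.189).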
